A study of Mus musculus with 18 samples.

Results

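The transcripts of mouse cumulus cells cultured with estrogen were compared between complexes without and with their oocyte. The comparison uses 6 of the 18 arrays of the series, chosen by their titles: 3 titled E2 OOX (numbers 5, 11 and 17) and 3 titled E2 COC (numbers 4, 10 and 16). E2 COC are cumulus-oocyte complexes cultured intact with estrogen, and E2 OOX are complexes whose oocyte had been taken out before culture with estrogen. Estrogen is therefore shared by both groups and is not what differs between them. All cells came from antral follicles of female mice, and the labels give neither strain nor age, nor the estrogen dose or the length of culture. For comparison, the text also uses the same removal without estrogen (OOX and COC, 3 arrays each) and E2 OOX+Oocytes, in which oocyte-free complexes were cultured with estrogen together with oocytes (3 arrays). The labels do not state whether the 3 arrays of a group stand for different mice or culture wells, so a p-value here reflects the array-to-array spread and that spread may be technical. By its title, the study asked how estrogen and oocytes act together on gene expression in these cells.

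Cumulus cells are the granulosa cells that enclose the oocyte and are joined to it by fine projections and gap junctions. In the mouse, the oocyte secretes growth factors of the TGF-beta family, above all GDF9 and BMP15, and through them drives glycolysis, cholesterol synthesis and amino acid transport in the cumulus cells, which pass the products back to it. Estrogen acts on these cells mainly through the nuclear receptors ESR1 and ESR2, and taking out the oocyte by microsurgery while leaving the cumulus shell is the usual way to ask which cumulus transcripts depend on it.

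The array numbered 5 carries conflicting labels. Its title places it in E2 OOX, while its source name and treatment label describe oocyte-free complexes cultured without estrogen. The title was followed, and values without this array are given below. Over the tested probe sets number 5 correlated at a mean r of 0.9685 with the other E2 OOX arrays and 0.9293 with the OOX arrays. The OOX arrays were themselves uneven, with number 14 at 0.9361 with the other OOX arrays and numbers 2 and 8 at 0.9586 and 0.9585. All of them lay outside the array series of number 5, so label and series cannot be told apart in these values. Number 17 correlated at 0.9547 with the other E2 OOX arrays and 0.9483 with OOX. By its array name, number 17 belongs to another series of arrays than the other 5 arrays of the comparison, and that series also holds 2 OOX arrays. The median within-group SD of a probe set was 0.239 log2 units in E2 OOX and 0.160 in E2 COC (n = 3 each). Of 14 granulosa identity markers, 13 lay above the array median on all 6 arrays, among them Foxl2, Inha, Amh and Gja1. Their levels were not all alike in the groups. Of the 14, 5 fell (35.7%, against 16.5% of all tested genes), among them Hsd17b1, Fst, Fshr and Nr5a2. Wt1 was the 1 that rose (7.14%, against 12.3%). Of 20 oocyte markers, 14 lay below it on all 6 arrays, and the list averaged 4.76 to 4.84 in E2 OOX and 5.10 to 5.11 in E2 COC. Bcl2l10 is 1 of the 20 and averaged 4.34 in E2 OOX and 8.71 in E2 COC, and of the 6 tested members of the list it was the only one that fell. Endothelial and blood cell markers were below the median on all 6 arrays in 13 of 17 cases, with list means of 4.35 to 4.43 in E2 OOX and 4.51 to 4.58 in E2 COC.

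Oocyte removal in the presence of estrogen changed 3523 of 12246 tested genes (28.8%), each gene represented by its brightest probe set. Of these, 1504 (12.3% of those tested) rose and 2019 (16.5%) fell at a limma adjusted p under 0.05, and 687 rises (5.61%) and 928 falls (7.58%) reached at least 2-fold. Over all 21249 single-gene probe sets tested, 5643 (26.6%) were called. Levels are the deposited log2 values, changes are E2 OOX minus E2 COC on the log2 scale, and "rose" and "fell" are kept for genes that passed this test. The median change of all tested genes was -0.05. Without number 5, 3258 genes were called, of which 3016 were also called in the same direction with it, or 85.6% of the 3523. Of 1636 called genes with several tested probe sets, 667 had every other tested probe set called in the same direction and 10 had another called in the opposite direction. Each array holds the RNA of many cells, so fewer cells of a kind and less RNA per cell cannot be told apart in any of these changes.

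The largest fall was that of Inhbb, which encodes the beta B subunit of activin B and inhibin B. Its level was 6.16, 6.60 and 6.29 on the E2 OOX arrays 5, 11 and 17, against 12.57, 12.72 and 12.79 on the E2 COC arrays 4, 10 and 16, and arrays are given in this order throughout. The groups lay far apart, with a change of -6.34 ± 0.327 (SE, n = 3 per group), or 81.2-fold, and a limma adjusted p of 6.95e-10. Dnajb13, a gene of a heat shock protein relative found in sperm tails and cilia, had levels of 6.37, 5.98 and 5.37 in E2 OOX and 11.70, 11.52 and 11.54 in E2 COC. Fbp1, which encodes a gluconeogenic phosphatase, had levels of 4.20, 4.10 and 3.82 in E2 OOX and 9.24, 9.09 and 9.24 in E2 COC. The E2 OOX values of Fbp1 lay below every array's median (5.51 to 5.71 over the 18 arrays), where RMA values are compressed, so that such folds may be understated. The same holds for Slc18a2, the vesicular monoamine transporter gene, at 3.53, 3.90 and 3.89 in E2 OOX and 8.53, 9.13 and 8.99 in E2 COC.

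The next falls were of genes of varied function. Nap1l5, a nucleosome assembly protein gene that is imprinted, had levels of 6.97, 6.06 and 6.82 in E2 OOX and 11.26, 11.48 and 11.54 in E2 COC (-4.81). Slc38a5, a transporter of glutamine and other neutral amino acids, had levels of 8.44, 7.68 and 7.01 in E2 OOX and 12.45, 12.13 and 12.38 in E2 COC (-4.61). Tac1, the substance P precursor gene, had levels of 4.80, 4.66 and 4.20 in E2 OOX and 9.13, 9.16 and 8.94 in E2 COC (-4.52). For Slc38a5 and Tac1, as for Dnajb13, number 17 was the lowest and number 5 the highest of the E2 OOX arrays, and the groups did not come near each other. Bcl2l10, a BCL2 family gene abundant in oocytes, had levels of 4.85, 3.80 and 4.37 in E2 OOX and 8.90, 8.62 and 8.61 in E2 COC (-4.37). Nupr1, a small stress-induced chromatin protein gene, had levels of 5.12, 6.22 and 5.45 in E2 OOX and 10.09, 10.29 and 9.09 in E2 COC (-4.23). Dynap and the serpin gene Serpina3a changed by -4.18 ± 0.333 and -4.14 ± 0.325, and with Ccnd2, described with the cell cycle genes, these complete the 12 largest falls.

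Among the rises, Tmsb4x led. It encodes thymosin beta 4, which holds actin monomers, and had levels of 11.18, 11.58 and 10.69 in E2 OOX and 5.83, 5.91 and 6.24 in E2 COC. Its change was 5.16 ± 0.281, or 35.7-fold (limma adjusted p = 1.26e-09). Fgd5, an exchange factor for the small GTPase CDC42, followed with 11.08, 10.95 and 10.78 in E2 OOX and 5.74, 5.90 and 5.96 in E2 COC (5.07 ± 0.207). In both genes every E2 OOX array stood far above every E2 COC array. The protocadherin gene Pcdh9 rose by 4.37 ± 0.234 and Vit, which encodes the matrix protein vitrin, by 4.37 ± 0.423. Bmp2, a ligand of BMP receptors, had levels of 9.60, 9.83 and 9.49 in E2 OOX and 5.12, 5.46 and 5.29 in E2 COC (4.35 ± 0.200). Cald1, which encodes the actin-binding protein caldesmon, had 11.17, 11.27 and 9.86 in E2 OOX and 6.38, 6.29 and 6.69 in E2 COC (4.31 ± 0.378), with number 17 the lowest E2 OOX array. Ghr, the growth hormone receptor gene, had 10.13, 9.93 and 10.31 in E2 OOX and 5.78, 5.53 and 6.30 in E2 COC (4.25 ± 0.337).

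The other largest rises belonged to matrix, vascular and death genes. The collagen VI chain gene Col6a4 rose by 4.15 ± 0.432 and the laminin-related secreted protein gene Ntn4 by 4.05 ± 0.275. Bmf, a pro-apoptotic BH3-only gene, had levels of 8.72, 9.03 and 9.35 in E2 OOX and 5.17, 5.05 and 4.72 in E2 COC (4.05 ± 0.368). Angpt2, a ligand of the endothelial receptor TIE2, had 11.26, 11.25 and 11.65 in E2 OOX and 7.86, 7.12 and 7.20 in E2 COC (3.99 ± 0.287), and Nrp2, a receptor of semaphorins and VEGF, rose by 3.86 ± 0.301. These 24 genes were picked among called genes whose arrays did not overlap between the groups, so neither property adds to their description. Of all tested genes, 2395 (19.6%) had all 3 E2 OOX arrays above all 3 E2 COC arrays, and 3037 (24.8%) had them below.

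**Figure D1:**
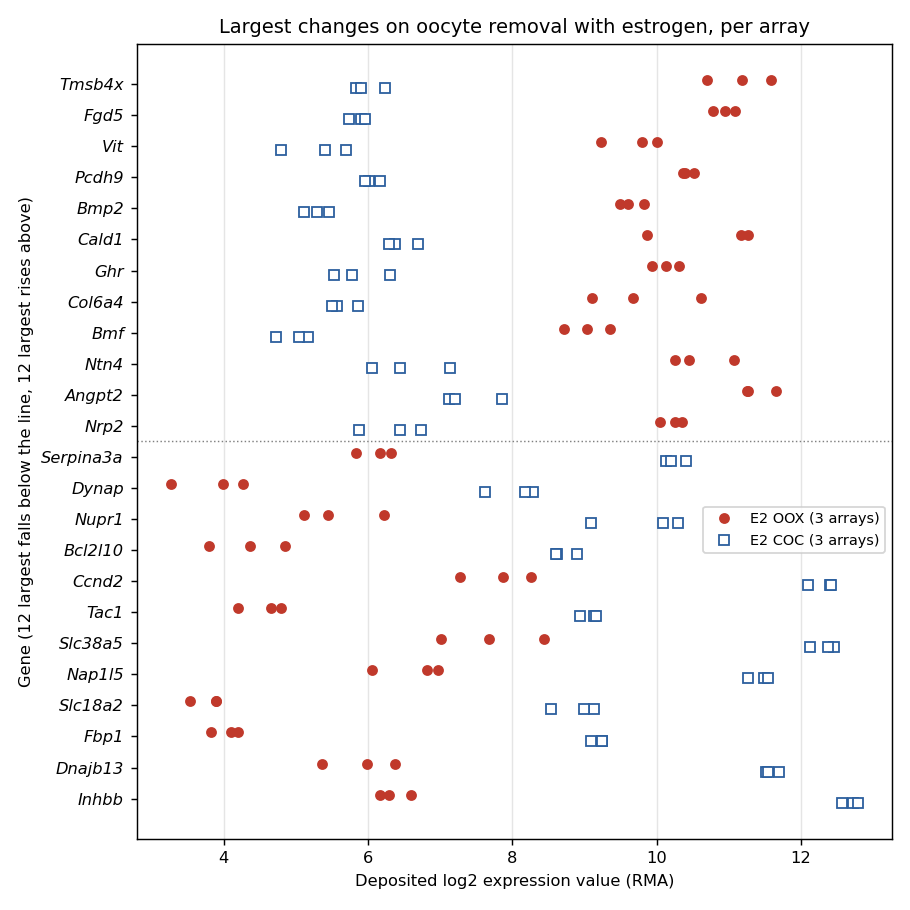
Deposited log2 level (x axis) of the 12 genes that rose most and the 12 that fell most, 1 row per gene, with the 3 E2 OOX arrays as filled circles and the 3 E2 COC arrays as open squares. Inhbb lies at 6.16 to 6.60 in E2 OOX and 12.57 to 12.79 in E2 COC, and no gene shown has overlapping groups, as the selection required.

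Cholesterol synthesis genes fell as a group after oocyte removal with estrogen. Of 21 tested genes, 18 fell and none rose, against 16.5% of all tested genes that fell, and the list's median change was -2.32. The sterol sensor partner genes Srebf2 (-0.50, adjusted p = 0.0613) and Scap (-0.36, adjusted p = 0.244) and the desaturase gene Sc5d (-0.88, adjusted p = 0.0612) did not pass. The genes of the early steps were lower by unequal amounts. Hmgcs1, which encodes the synthase just before HMG-CoA reductase, had levels of 10.46, 10.49 and 10.80 in E2 OOX and 11.88, 12.24 and 12.26 in E2 COC (-1.54 ± 0.141). The mevalonate kinase gene Mvk changed by -3.22, the phosphomevalonate kinase gene Pmvk by -1.74 and the decarboxylase gene Mvd by -3.00. Idi1, the isomerase that makes dimethylallyl diphosphate, had 4.47, 4.47 and 5.74 in E2 OOX and 8.79, 9.31 and 8.91 in E2 COC, a 17.3-fold fall (-4.11 ± 0.412; limma adjusted p = 1.11e-06). Number 17 was the highest E2 OOX array for Idi1 and still lay below all E2 COC arrays. Fdps, the farnesyl diphosphate synthase gene, had 6.60, 5.81 and 6.50 in E2 OOX and 9.73, 9.76 and 9.72 in E2 COC (-3.43 ± 0.220).

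Genes of the sterol branch followed. Fdft1, the squalene synthase gene, changed by -1.41, the squalene epoxidase gene Sqle by -2.40, the lanosterol synthase gene Lss by -1.98 and the demethylase gene Cyp51 by -2.49. Tm7sf2, a sterol reductase gene, had levels of 6.20, 5.58 and 6.39 in E2 OOX and 9.29, 9.35 and 9.91 in E2 COC (-3.46 ± 0.296). Its groups did not overlap, like those of Msmo1 (-2.70), Nsdhl (-2.78) and Ebp (-1.99), 3 genes of the later demethylation and isomerase steps. Dhcr7, the reductase of the last step, had 6.35, 6.57 and 6.34 in E2 OOX and 8.94, 8.93 and 9.03 in E2 COC (-2.55 ± 0.144). Insig1, a feedback regulator of the pathway that is itself a sterol-regulated gene, and Stard4, a sterol carrier gene, changed by -2.32 and -2.13. Hsd17b7 (-0.70) passed here but lost its call in some of the alternative settings.

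**Figure D2:**
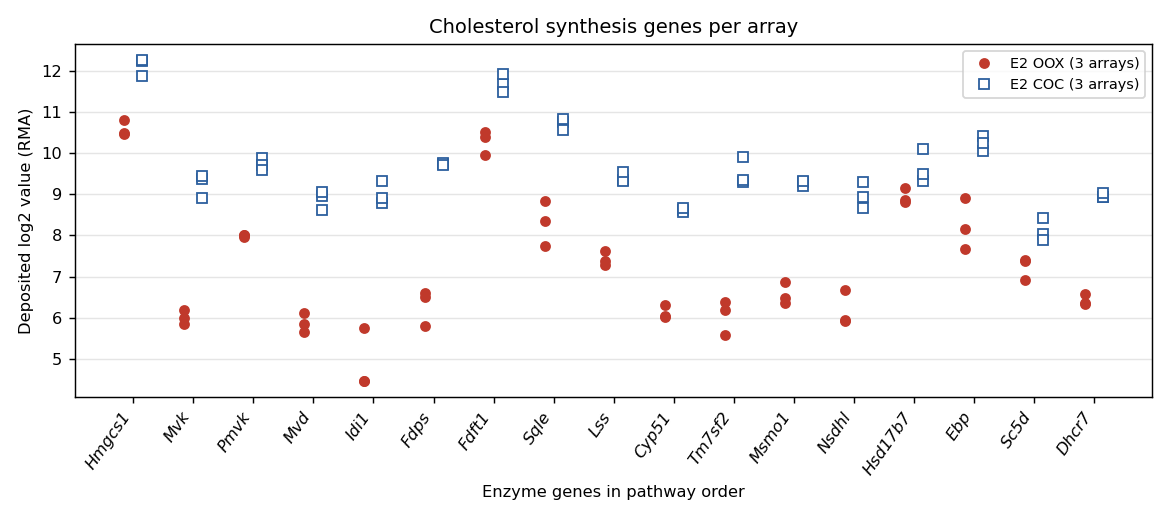
Deposited log2 level (y axis) of the tested enzyme genes of cholesterol synthesis in pathway order (x axis), with the 3 E2 OOX arrays as filled circles and the 3 E2 COC arrays as open squares. Idi1 shows 4.47 to 5.74 in E2 OOX and 8.79 to 9.31 in E2 COC. Levels of different genes come from different probe sets and are not comparable with each other.

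Cholesterol synthesis genes are known to share CCAAT boxes, bound by NF-Y, and sterol regulatory elements, bound by SREBP. The promoters of Idi1, which fell most, and Hmgcs1, the first step, are shown to display these motifs, as the 250 bases before the RefSeq transcription start in the build GRCm38.p6: Idi1 at chr13:8885356-8885605 and Hmgcs1 at chr13:119690101-119690350, both on the plus strand. Capitals mark CCAAT on either strand (ATTGG as read here) and, in Hmgcs1, the element TCACNCCAC.
Idi1: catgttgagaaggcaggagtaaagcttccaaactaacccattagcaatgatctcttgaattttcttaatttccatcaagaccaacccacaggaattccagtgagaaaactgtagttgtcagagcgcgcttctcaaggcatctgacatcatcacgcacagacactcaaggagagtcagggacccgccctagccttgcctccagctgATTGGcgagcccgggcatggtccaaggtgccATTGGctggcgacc
Hmgcs1: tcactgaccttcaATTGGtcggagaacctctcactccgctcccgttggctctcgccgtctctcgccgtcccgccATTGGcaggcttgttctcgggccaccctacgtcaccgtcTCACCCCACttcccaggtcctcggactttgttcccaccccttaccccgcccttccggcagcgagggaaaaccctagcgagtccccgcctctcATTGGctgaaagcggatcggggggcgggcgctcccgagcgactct
Idi1 holds 2 CCAAT matches, and Hmgcs1 holds 3 and 1 sterol element. Searched on both strands from 250 bases before to 50 after the start, 16 of 17 tested list members with a promoter held CCAAT (94.1%), and 42.1% of the 9897 tested genes with a promoter did. TCACNCCAC was found in 1 of the 17 (5.88%) and in 1.5% of the 9897 genes. A match of letters is not a binding site, and this window holds only the bases next to the start.

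Fatty acid synthesis genes also fell more often than they rose. Of 16 tested, 10 fell (62.5%, against 16.5% of all tested genes) and none rose, with a median of -0.83. Without the E2 COC array 16, 6 fell. The stearoyl-CoA desaturase gene Scd2 had levels of 11.62, 11.17 and 9.66 in E2 OOX and 12.93, 13.05 and 13.30 in E2 COC (-2.28 ± 0.366), with number 17 again the lowest. Scd1, its close relative, changed by -1.90, the elongase gene Elovl6 by -1.20, the desaturase gene Fads2 by -1.20 and the fatty acid synthase gene Fasn by -0.97. Srebf1, which encodes the factor that drives this pathway, was at -0.52 (adjusted p = 0.0873). Genes of cholesterol efflux and lipoprotein handling went both ways. Of 14 tested, 5 rose and 3 fell (35.7% and 21.4%, against 12.3% and 16.5% of all tested genes). Apoe, the lipid carrier gene, had 11.31, 10.94 and 11.63 in E2 OOX and 8.56, 7.54 and 8.18 in E2 COC (3.20 ± 0.334). Mylip, a ubiquitin ligase that degrades the LDL receptor, rose by 2.32 and the lipoprotein lipase gene Lpl by 1.49. The receptor genes Lrp8 (-2.56 ± 0.202), an apolipoprotein E receptor, and Scarb1 (-1.38 ± 0.163), the HDL receptor, fell.

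Cell division genes fell nearly without exception. All 29 tested DNA replication genes fell (median -1.52), and of 29 mitosis genes 28 fell and Foxm1, a mitotic transcription factor gene, was at -0.31 (adjusted p = 0.0845), for a list median of -1.54. Another probe set of Foxm1 passed (-0.41, adjusted p = 0.0371). The share of all tested genes that fell was 16.5%. Among the replication genes, Tk1, the thymidine kinase gene, had levels of 4.77, 3.45 and 4.88 in E2 OOX and 8.52, 7.79 and 8.73 in E2 COC (-3.98 ± 0.390). Uhrf1, which keeps DNA methylation in step with replication, changed by -3.10 and the origin licensing gene Cdc6 by -2.42. The helicase subunit gene Mcm5 had 9.39, 9.59 and 8.56 in E2 OOX and 11.22, 11.09 and 11.22 in E2 COC (-2.0 ± 0.215), and Mcm3 changed by -2.35 and the sliding clamp gene Pcna by -1.68. Of mitosis genes, the proliferation marker Mki67 had 7.58, 8.15 and 7.32 in E2 OOX and 9.94, 10.44 and 10.54 in E2 COC (-2.62 ± 0.273). Ube2c, a ubiquitin-conjugating enzyme of the anaphase-promoting complex, had 9.51, 9.14 and 7.10 in E2 OOX and 11.00, 11.02 and 11.25 in E2 COC (-2.51 ± 0.407). Numbers 5 and 11 lay close together for Ube2c and number 17 well below them, and without number 17 the change was -1.76. The kinase genes Aurkb and Bub1 of the chromosome segregation checkpoint changed by -2.54 and -2.20.

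Cyclins and inhibitors of cyclin-dependent kinases did not all move one way, and their median was -0.25. Of 18 tested, 8 fell and 2 rose (44.4% and 11.1%, against 16.5% and 12.3% of all tested genes). Ccnd2, the main D-type cyclin gene of granulosa cells, had levels of 8.26, 7.87 and 7.28 in E2 OOX and 12.40, 12.09 and 12.41 in E2 COC (-4.50 ± 0.200; limma adjusted p = 1.75e-10). Ccnd1 was at 0.06 and Ccnd3 at 0.05, and neither passed (adjusted p = 0.82 and 0.868), although another probe set of Ccnd3 did (1.14, adjusted p = 0.00217). The cyclin E gene Ccne1 changed by -1.99 ± 0.199 and Ccne2 by -1.41. Both rises were of inhibitors: Cdkn1c, which encodes p57, had 8.35, 8.40 and 8.37 in E2 OOX and 5.63, 5.36 and 5.91 in E2 COC (2.74 ± 0.191), and Cdkn1a, which encodes p21, had 11.80, 11.57 and 11.79 in E2 OOX and 10.27, 9.57 and 10.18 in E2 COC (1.71 ± 0.187). Cdkn1b, the p27 gene, was at 0.40 (adjusted p = 0.237).

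Replication promoters are known for E2F sites and mitotic promoters for CHR elements, which the DREAM complex binds. The promoters of Mcm5, Mki67 and Ube2c are shown for these motifs, again as the 250 bases before the RefSeq start in GRCm38.p6: Mcm5 at chr8:75109259-75109508 on the plus strand, Mki67 at chr7:135716380-135716629 on the minus strand and Ube2c at chr2:164769679-164769928 on the plus strand. Capitals mark E2F matches in Mcm5 (TTTCCCGC, TTTGGCGC, TTTCGCGC or TTTGCCGC) and CHR matches (TTTGAA) in the other two, on either strand.
Mcm5: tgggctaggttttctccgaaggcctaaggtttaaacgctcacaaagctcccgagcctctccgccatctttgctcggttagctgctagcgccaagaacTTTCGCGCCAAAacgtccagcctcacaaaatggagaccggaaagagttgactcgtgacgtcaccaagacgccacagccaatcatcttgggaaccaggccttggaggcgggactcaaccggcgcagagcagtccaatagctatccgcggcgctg
Mki67: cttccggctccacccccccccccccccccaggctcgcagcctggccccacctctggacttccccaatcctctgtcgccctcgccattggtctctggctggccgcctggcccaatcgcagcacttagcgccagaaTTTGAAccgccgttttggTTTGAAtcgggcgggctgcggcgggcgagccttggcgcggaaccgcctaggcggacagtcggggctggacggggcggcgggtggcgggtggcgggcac
Ube2c: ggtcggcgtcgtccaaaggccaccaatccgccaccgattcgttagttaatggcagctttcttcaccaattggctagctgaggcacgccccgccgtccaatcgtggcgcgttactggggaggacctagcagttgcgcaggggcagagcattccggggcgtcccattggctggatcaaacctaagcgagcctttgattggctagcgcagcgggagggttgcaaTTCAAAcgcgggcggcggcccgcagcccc
The 2 E2F matches of Mcm5 lie on opposite strands and overlap, so the capitals form 1 run. Searched on both strands from 250 bases before to 50 after the start, an E2F match was found in 12 of 25 replication genes with a promoter (48%) and in 4.74% of the 9897 tested genes. A CHR match was found in 19 of 24 mitosis genes (79.2%) and in 13.8% of the 9897. CCAAT stood in 19 of the 24 mitosis genes as well, against 42.1%. These are matches of letters only.

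Glycolysis genes fell in 15 of 21 cases (71.4%, against 16.5% of all tested genes) and rose in 2, with a median of -1.02. Aldoc, an aldolase gene, had levels of 8.09, 6.98 and 7.17 in E2 OOX and 10.62, 10.06 and 10.48 in E2 COC (-2.97 ± 0.285). Other steps were lower by less: the phosphofructokinase gene Pfkp changed by -1.88, the phosphoglycerate mutase gene Pgam1 by -1.64 and the pyruvate kinase gene Pkm by -1.36. The glucose transporter gene Slc2a1 changed by -1.02, and the lactate exporters Slc16a3 and Slc16a1 by -2.06 and -1.46. The hexokinase genes Hk1 (-0.09) and Hk2 (-0.11) did not pass (adjusted p = 0.81 and 0.699). The lactate dehydrogenase subunit genes moved in opposite directions, Ldha to 11.61, 11.55 and 11.63 in E2 OOX against 12.63, 12.40 and 12.39 in E2 COC (-0.88 ± 0.145), and Ldhb to 12.32, 12.05 and 12.44 in E2 OOX against 11.80, 11.69 and 11.69 in E2 COC (0.54 ± 0.141). Of 25 respiratory chain genes, 7 fell and none rose (28%, against 16.5% of all tested genes), with a median of -0.35 and small changes such as -0.69 for the ATP synthase gene Atp5o and -0.65 for the complex I gene Ndufv2.

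Amino acid transporter genes fell in 9 of 24 cases (37.5%, against 16.5% of all tested genes) and rose in 2 (8.33%, against 12.3%), and Slc38a5 fell most. Slc7a8, the LAT2 transporter gene, changed by -1.31, the ASCT2 gene Slc1a5 by -0.77 and the glutamine transporter gene Slc38a3 by -0.90 ± 0.194. Slc38a6 rose by 0.83, while Slc7a5, the LAT1 gene, was at 0.20 and its partner gene Slc3a2 at -0.65, and neither passed (adjusted p = 0.617 and 0.0912). Of 18 genes of the amino acid stress response, which the factor ATF4 controls, 9 fell and 2 rose (50% and 11.1%; median -0.84). Besides Nupr1, the glutathione-degrading enzyme gene Chac1 had levels of 6.05, 6.51 and 5.53 in E2 OOX and 9.23, 8.83 and 8.97 in E2 COC (-2.98 ± 0.400). The mitochondrial one-carbon enzyme genes Shmt2 and Mthfd2 changed by -2.70 ± 0.210 and -2.58 ± 0.195, and Asns, the asparagine synthetase gene, by -2.02 ± 0.223. The probe sets of Atf4 itself disagreed: the brightest was at -0.25 (adjusted p = 0.627), and the other, at a mean of 10.11 in E2 OOX and 11.27 in E2 COC, was called (-1.16, adjusted p = 0.00144). The mTOR inhibitor gene Ddit4 rose by 1.39 and Ddit3, the CHOP gene, by 0.75.

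Genes of the activin, inhibin, BMP and TGF-beta system differed by role. Of 18 ligands and extracellular antagonists, 5 rose and 4 fell (27.8% and 22.2%, against 12.3% and 16.5% of all tested genes). The activin subunit genes were lower: next to Inhbb, Inhba, the beta A subunit gene, had levels of 11.95, 11.61 and 11.29 in E2 OOX and 12.80, 12.67 and 13.03 in E2 COC (-1.22 ± 0.183). Inha, the alpha subunit that turns activin into inhibin, stood at 13.31, 13.05 and 13.06 in E2 OOX and 13.60, 13.50 and 13.61 in E2 COC (-0.43 ± 0.162), which did not pass (adjusted p = 0.0591). The 3 E2 OOX arrays of Inha nevertheless all lay below the 3 E2 COC arrays. The genes of the antagonists Fst, which binds activin, and Grem1, which binds BMPs, fell as well, Fst to 11.11, 10.51 and 10.56 in E2 OOX against 13.12, 13.05 and 13.25 in E2 COC (-2.41 ± 0.209), and Grem1 to 6.90, 6.71 and 5.85 in E2 OOX against 9.13, 9.04 and 9.44 in E2 COC (-2.72 ± 0.250). Bmp2, described above, and Tgfb2 (1.83 ± 0.319) rose, as did Tgfb1 by 0.61. Amh, the anti-Mullerian hormone gene, was at -0.28 (adjusted p = 0.138).

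Of 13 receptor genes, 4 rose and 1 fell (30.8% and 7.69%, against 12.3% and 16.5% of all tested genes). Without number 4, 16 or 17, 3 in all were called. Tgfbr1, the type I receptor of TGF-beta and GDF9, had levels of 9.08, 9.41 and 9.68 in E2 OOX and 8.11, 8.43 and 8.45 in E2 COC (1.06 ± 0.226), and the co-receptor gene Tgfbr3 rose by 1.16 ± 0.242. The receptors used by BMP15 and GDF9, Bmpr2 (0.28) and Bmpr1b (-0.29), did not pass (adjusted p = 0.365 and 0.367), though for Bmpr1b 2 dimmer probe sets were called (-0.72 and -0.74, adjusted p = 0.0211 and 0.017). Of 24 SMAD genes and SMAD targets, 10 rose and 3 fell (41.7% rose, against 12.3% of all tested genes), with a median of 0.49. Id1, a direct target of BMP-activated SMADs, had 10.62, 10.52 and 10.54 in E2 OOX and 8.43, 8.27 and 8.23 in E2 COC (2.25 ± 0.172), and the arrays within each group lay close together. Id2 and Id4 rose by 0.88 and 1.45, and the BMP target Atoh8 by 1.48 ± 0.230. Ccn2, a secreted matrix regulator induced by TGF-beta and YAP, had 12.01, 11.79 and 12.90 in E2 OOX and 9.08, 9.22 and 9.72 in E2 COC (2.89 ± 0.275). Smad3, the effector of activin and GDF9, rose by 1.20 ± 0.195, whereas Ltbp1, which tethers latent TGF-beta (-1.88 ± 0.184), and Pmepa1, a feedback inhibitor (-1.37 ± 0.194), fell. Smad7, the common feedback inhibitor, was at 0.62 (adjusted p = 0.054).

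Steroid synthesis genes included 4 falls and 1 rise among 13 tested (30.8% fell and 7.69% rose, against 16.5% and 12.3% of all tested genes), and 3 in all were called without number 10 or 16. Hsd17b1, whose enzyme makes estradiol from estrone, had levels of 10.17, 9.17 and 9.12 in E2 OOX and 13.31, 13.06 and 13.19 in E2 COC (-3.70 ± 0.208), with number 5 the highest E2 OOX array. Hsd11b2, which inactivates glucocorticoids, had 8.36, 7.71 and 7.54 in E2 OOX and 9.58, 9.35 and 9.55 in E2 COC (-1.62 ± 0.201). Star, the cholesterol carrier of mitochondria, was at 0.18 (adjusted p = 0.471). Of 18 estrogen receptor, coregulator and target genes, 3 rose and 3 fell (16.7% each way, against 12.3% and 16.5% of all tested genes). Esr1, the estrogen receptor alpha gene, had 7.33, 7.32 and 7.25 in E2 OOX and 8.86, 8.85 and 8.76 in E2 COC (-1.52 ± 0.313), and Esr2, the beta receptor gene that dominates in granulosa cells, was at 0.08 (adjusted p = 0.853). The estrogen target genes were not uniform: Greb1 stood at 12.35, 12.47 and 12.52 in E2 OOX and 12.39, 12.79 and 12.51 in E2 COC and did not pass (-0.12, adjusted p = 0.61), Stc2 changed by -2.58 ± 0.314, and the coregulator gene Cited2 rose by 3.05 ± 0.206.

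Hormone receptor and growth factor genes split evenly, with 4 rises and 4 falls among 15 tested (26.7% each way, against 12.3% and 16.5% of all tested genes). Fshr, the FSH receptor gene, had levels of 6.29, 5.60 and 5.74 in E2 OOX and 7.97, 7.49 and 8.24 in E2 COC (-2.02 ± 0.271), and Igf1 had 9.11, 8.93 and 7.86 in E2 OOX and 11.13, 11.42 and 11.27 in E2 COC (-2.64 ± 0.253). Both were lower on every E2 OOX array, while Ghr, through which growth hormone acts, rose as given above. The IGF1 receptor gene Igf1r was at -0.07 (adjusted p = 0.83). Cyclic GMP in cumulus cells passes through gap junctions and holds the oocyte in meiotic arrest. Of 13 genes of this system, 3 rose and 2 fell (23.1% and 15.4%, against 12.3% and 16.5%), and 3 in all were called without number 4. The ligand gene Nppc (-0.23) and its receptor gene Npr2 (-0.49) did not pass (adjusted p = 0.464 and 0.12). Pde5a, which degrades cyclic GMP, had 9.26, 9.69 and 8.46 in E2 OOX and 5.59, 6.10 and 6.02 in E2 COC (3.23 ± 0.360), and Gucy1b1, a subunit of soluble guanylate cyclase, rose by 2.48 ± 0.326.

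Genes of oocyte-granulosa contact also went both ways, with 3 rises and 3 falls among 14 tested (21.4% each way, against 12.3% and 16.5% of all tested genes). Kitl, which encodes the granulosa signal to the oocyte's KIT receptor, had levels of 9.82, 9.78 and 11.47 in E2 OOX and 6.98, 7.42 and 7.37 in E2 COC (3.10 ± 0.368). Number 17 was much the highest, and without it the change was 2.54. Gja1, the connexin 43 gene that joins cumulus cells to each other, was at 0.08 (adjusted p = 0.694), and Gja4, the connexin 37 gene of the oocyte's junctions, had 4.25, 4.05 and 4.17 in E2 OOX and 6.35, 5.77 and 6.22 in E2 COC (-1.96 ± 0.198). Myo10, a filopodial myosin of the projections that reach the oocyte, changed by -1.72 ± 0.214, and the adhesion gene Nectin2 rose by 1.44 ± 0.351. Of 17 genes of cumulus expansion and the EGF network, 4 rose and 3 fell (23.5% and 17.6%, against 12.3% and 16.5%). The hyaluronan synthase gene Has2 had 4.89, 4.47 and 4.61 in E2 OOX and 6.01, 5.62 and 5.66 in E2 COC (-1.11 ± 0.230), close to the array median. The proteoglycan gene Vcan changed by -1.65 ± 0.275, while the ERK-response genes Etv5 and Dusp6 rose by 2.47 ± 0.423 and 2.31 ± 0.261. The EGF receptor gene Egfr was at -0.28 by its brightest probe set (adjusted p = 0.165), and 2 others were called (-1.18 and -0.95, adjusted p = 0.000681 and 0.00806).

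Actin and contractile genes rose in 13 of 24 cases and fell in none, against 12.3% of all tested genes that rose, with a median of 0.74. Acta2, the smooth muscle actin gene, had levels of 11.99, 11.72 and 10.79 in E2 OOX and 8.78, 8.19 and 8.60 in E2 COC (2.98 ± 0.319). Cnn2, a calponin gene, had 10.23, 9.53 and 9.61 in E2 OOX and 6.59, 6.39 and 6.56 in E2 COC (3.28 ± 0.225; limma adjusted p = 1.68e-08). Every E2 OOX array of both genes stood above every E2 COC array by a wide margin. The tropomyosin gene Tpm1 rose by 1.73 ± 0.231, the vinculin gene Vcl by 1.73 ± 0.210, the filamin gene Flna by 1.46 and the myosin light chain kinase gene Mylk by 1.38 ± 0.250. The light chain genes Myl6 and Myl9 rose by 1.61 and 1.27 and the non-muscle myosin gene Myh10 by 0.89. Myl9 was dim, at 5.68, 5.58 and 4.79 in E2 OOX and 4.04, 3.92 and 4.28 in E2 COC. Cytoplasmic actin, Actb, stood at 13.50, 13.36 and 13.17 in E2 OOX and 13.22, 13.14 and 13.26 in E2 COC and did not pass (0.14, adjusted p = 0.499), nor did the muscle marker Tagln (0.38, adjusted p = 0.304). Acta2 is also a marker of theca and stroma cells. Of the 14 markers of those cells, 7 were tested and 5 of these rose (71.4%, against 12.3% of all tested genes). They were Acta2, Dcn, Aldh1a1, Nr2f2 and Ptch1, the last with 2 other probe sets that did not pass. The other 2 tested, Gli1 and Pdgfra, did not pass and were lower in E2 OOX. Gli1 averaged 5.34 in E2 OOX and 5.68 in E2 COC, and Pdgfra 5.88 and 6.07. The 14 markers averaged 6.44 to 6.50 on the E2 OOX arrays and 5.58 to 5.73 on the E2 COC arrays. Cyp17a1, Col1a1, Col1a2, Col3a1, Lum, Tcf21 and Mfap5 lay below the array median on all 6 arrays. The part of such cells in these changes was not tested.

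Contractile genes are known targets of serum response factor, which binds the CArG box. The promoter of Cnn2, which rose and holds such a box, is shown at chr10:79988350-79988599 on the plus strand (250 bases before the RefSeq start, GRCm38.p6), with the CArG match in capitals.
Cnn2: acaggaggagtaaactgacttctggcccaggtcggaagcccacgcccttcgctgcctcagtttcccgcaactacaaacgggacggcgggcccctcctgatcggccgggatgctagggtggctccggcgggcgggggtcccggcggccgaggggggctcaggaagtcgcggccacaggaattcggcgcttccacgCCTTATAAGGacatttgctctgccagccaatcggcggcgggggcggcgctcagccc
The CArG pattern reads the same on both strands and was counted once per place. From 250 bases before to 50 after the start it was found in 4 of 22 tested list members with a promoter (18.2%), Cnn2, Myl6, Myl9 and Vcl, and in 1.5% of the 9897 tested genes. A match is a description of these letters and not a site in use.

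Extracellular matrix genes rose in 9 of 25 cases (36%, against 12.3% of all tested genes) and fell in 4 (16%, against 16.5%). Dcn, the decorin gene, had levels of 7.47, 7.74 and 8.61 in E2 OOX and 4.51, 4.66 and 4.49 in E2 COC (3.39 ± 0.236), and the collagen V gene Col5a2 had 9.08, 9.12 and 9.09 in E2 OOX and 5.82, 5.80 and 5.89 in E2 COC (3.26 ± 0.254). In both genes the E2 COC arrays lay within a narrow range far below E2 OOX. Basement membrane chains rose, Col4a5 by 2.08 and Col4a1 by 1.74, and fibronectin, Fn1, by 1.52, while the collagen VI chains Col6a1 and Col6a2 changed by -2.52 and -1.37 and Col6a3 by 1.16. The collagen VI family, with Col6a4, was divided between rises and falls. Of 18 matrix protease and inhibitor genes, 5 rose and 3 fell (27.8% and 16.7%, against 12.3% and 16.5%). Mmp11, the stromelysin 3 gene, had 11.29, 11.34 and 12.27 in E2 OOX and 9.24, 9.24 and 9.28 in E2 COC (2.38 ± 0.272), Mmp14 rose by 1.73 and the plasminogen activator gene Plat by 1.70, and the serine protease gene Htra1 changed by -1.51.

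Vascular ligand genes rose in 8 of 15 cases (53.3%, against 12.3% of all tested genes) and fell in 3 (20%, against 16.5%). After Angpt2 and Nrp2, Edn1, the endothelin 1 gene, had levels of 8.18, 8.27 and 8.34 in E2 OOX and 6.41, 6.02 and 6.15 in E2 COC (2.07 ± 0.130), and the co-receptor gene Nrp1 rose by 1.91 ± 0.412. Vegfa, the main angiogenic factor gene, changed the other way, by -1.38 ± 0.351, as did Pdgfb, by -1.90 ± 0.267. Kdr, a VEGF receptor gene and endothelial marker, was at -0.01 (adjusted p = 0.98). Of 22 Hedgehog, Notch and WNT genes, 5 rose and 4 fell (22.7% and 18.2%, against 12.3% and 16.5%). The Notch target Hey2 had 5.67, 5.51 and 5.86 in E2 OOX and 7.34, 7.67 and 7.61 in E2 COC (-1.86 ± 0.180), Hes1, another Notch target, rose by 1.19 ± 0.297, and the receptor gene Notch2 rose by 1.05. The Hedgehog effector gene Gli2 changed by -1.12 ± 0.263, and Gli1 was at -0.34 (adjusted p = 0.179).

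Immediate early and heat shock genes rose in 9 of 27 cases and fell in 4 (33.3% rose, against 12.3% of all tested genes). Egr1, a growth factor-induced zinc finger gene, had levels of 12.47, 12.61 and 12.41 in E2 OOX and 9.02, 9.86 and 9.34 in E2 COC (3.09 ± 0.197). Klf6 had 10.93, 10.78 and 11.24 in E2 OOX and 7.79, 8.36 and 8.79 in E2 COC (2.67 ± 0.238), and Egr2 and Junb, of the same class of early response genes, rose by 2.49 ± 0.485 and 2.20 ± 0.330. Fos was at 0.53 and Jun at 0.14, and neither passed (adjusted p = 0.12 and 0.831). The inducible chaperone genes Hspa1b and Hspa1a, a near-identical pair that probe sets may not tell apart, changed by -1.95 and -1.21. Of 20 survival and death genes, 8 rose and 1 fell (40% and 5%, against 12.3% and 16.5% of all tested genes). Besides Bmf, the caspase gene Casp6 rose by 1.17 and the p53 targets Bbc3 and Mdm2 by 0.92 and 0.79. Bok, a BAX relative, changed by -1.55 ± 0.286. Bcl2, the founding survival gene of the family, was at -0.07 and did not pass (adjusted p = 0.844) by its brightest probe set. Another probe set of Bcl2, at a mean of 6.26 in E2 OOX and 4.88 in E2 COC, was called (1.38, adjusted p = 0.0171).

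Granulosa transcription factor genes rose in 6 of 18 cases (33.3%, against 12.3% of all tested genes) and fell in 2 (11.1%, against 16.5%). Sox4 had levels of 11.75, 11.80 and 12.77 in E2 OOX and 9.71, 9.77 and 9.62 in E2 COC (2.41 ± 0.226), Wt1, a factor of early granulosa cells, rose by 1.96 ± 0.172 and Bach2 by 1.54 ± 0.235. Nr5a2, the LRH-1 gene needed for ovulation and luteinization, had 10.25, 10.08 and 9.27 in E2 OOX and 11.07, 11.56 and 11.61 in E2 COC (-1.55 ± 0.259). Foxl2, which keeps granulosa identity, stood at 11.30, 10.87 and 11.61 in E2 OOX and 11.05, 10.88 and 11.12 in E2 COC and did not pass (0.24, adjusted p = 0.353). Of 13 interferon and antigen presentation genes, only the immunoproteasome gene Psmb9 was called (-2.06 ± 0.223). Antioxidant genes fell in 4 of 19 cases and rose in 2 (21.1% and 10.5%, against 16.5% and 12.3%). Among them Gclm, a subunit of the rate-limiting enzyme of glutathione synthesis, was at -1.61 ± 0.316. Markers of both granulosa classes were lower in many cases. Of 11 cumulus markers, 9 fell (81.8%, against 16.5%) and none rose. Of 9 mural markers, 6 fell (66.7%) while 1, Kitl, rose. Over the 9 lists in which no member rose, 0 members were higher at an unadjusted limma p under 0.05. These lists were picked by the adjusted p of the same test, so that 0 is partly built in.

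**Figure D3:**
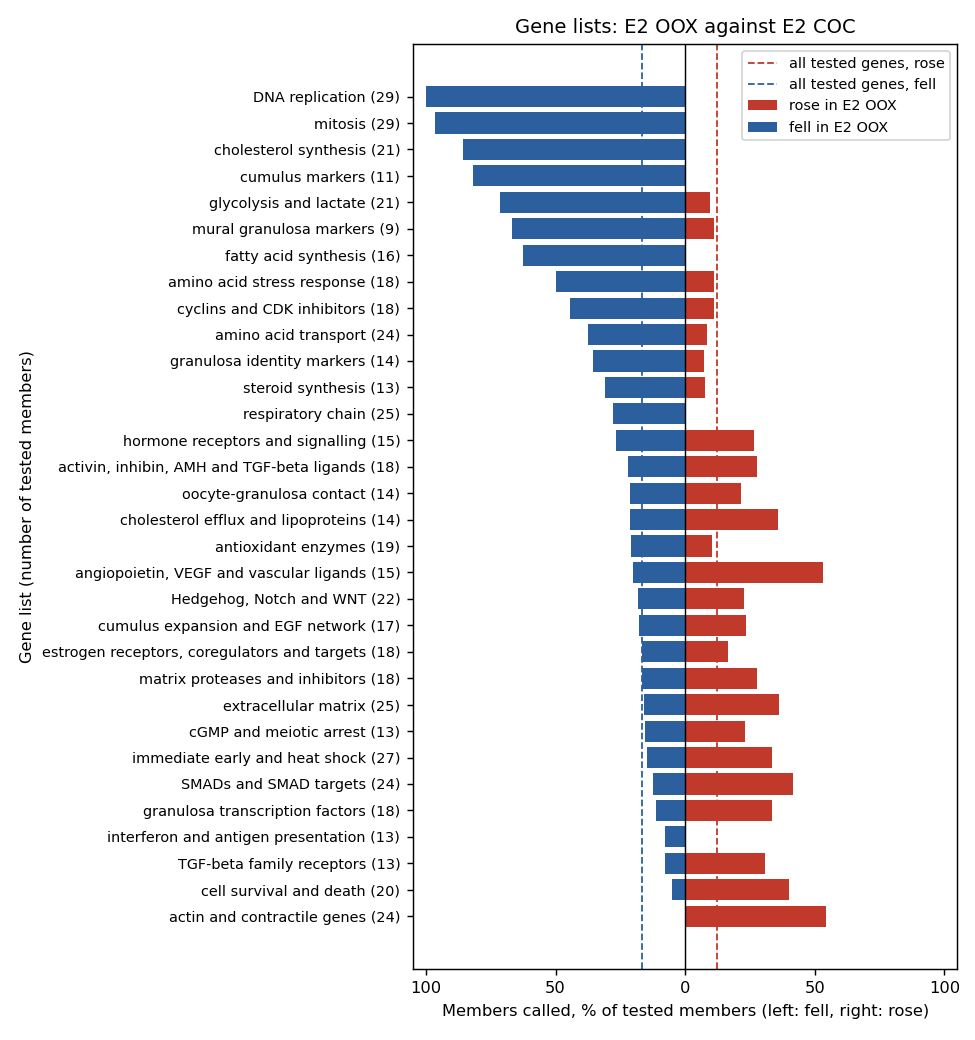
Share of the tested members of gene lists that rose (bars to the right of 0) or fell (bars to the left of 0) in E2 OOX against E2 COC, in % (x axis), with the number tested after each list's name. The oocyte, theca and stroma, endothelial and blood cell, and ovarian surface epithelium marker lists had few tested members and are not drawn. Dashed lines mark the shares over all tested genes, 12.3% rose and 16.5% fell. DNA replication and mitosis lie almost wholly on the left, and the actin and contractile genes lie wholly on the right.

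The same removal was measured without estrogen on 6 other arrays, so the changes can be set side by side without a shared array. Without estrogen 4594 genes were called (37.5%), more than with it, but with array series as a term the order was the other way, with 3859 genes called with estrogen and 2899 without. In the fit without that term 2629 were called in the same direction in both, which is 74.6% of the genes called with estrogen and 57.2% of those called without. Another 32 were called in opposite directions. The difference of the changes was itself tested, and 355 genes passed (2.9%), 196 with a positive and 159 with a negative difference. Of these, 118 were called in the same direction in both, with the smaller change with estrogen in 81 and the larger in 37. All 3 OOX arrays lay outside the array series that holds 5 of the 6 arrays with estrogen, so array series and estrogen cannot be fully told apart in this difference. The 4594 calls without estrogen and the 2629 shared calls also rest on these OOX arrays and may carry array series too. The count of called differences moved with the arrays and their weights. It was 240 without number 5, 615 without number 17, 1055 with array weights and 73 when number 5 was placed in the group of its source name.

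Of 24 actin and contractile genes, 9 had a called positive difference and none a negative one, against 1.6% of all tested genes with a positive one. Without number 5 this count was 4 of 24, and with number 5 placed as its source name says it was 2 of 24. Over all 12246 tested genes, 121 and 31 had a called positive difference in these settings. The median difference of the 24 actin and contractile genes was 0.80 with all arrays, 0.79 without number 5 and 0.63 with it so placed. Without estrogen their median change was -0.06, with 9 rises and 8 falls. Acta2 rose with estrogen, and without it lay at 9.64 to 10.51 in OOX and 11.74 to 11.94 in COC, a change of -1.91 ± 0.319, so that the difference was 4.88 ± 0.451 (adjusted p = 2.26e-05). Mylk and Myl9 likewise changed by -1.07 ± 0.250 and -0.88 ± 0.284 without estrogen, opposite to their rises with it. Myl9 was dim, at 3.92 to 5.68 on the arrays of these groups, near or below the array medians of 5.51 to 5.71. Its difference did not pass with number 5 placed by its source name (limma adjusted p = 0.217). Cnn2 and Tmsb4x rose in both settings, by 1.51 and 3.38 without estrogen, and the difference was 1.77 for each, which for Tmsb4x did not pass without number 5 (adjusted p = 0.0555). With number 5 placed by its source name neither difference passed (limma adjusted p = 0.538 for Cnn2 and 0.0728 for Tmsb4x). Of the 7 tested theca and stroma markers, 3, Acta2 among them, had a positive difference and none a negative one (median 0.66), and the part of such cells in the difference was not tested. In intact complexes Acta2 lay at 8.19 to 8.78 in E2 COC and 11.74 to 11.94 in COC, and in oocyte-free complexes at 10.79 to 11.99 in E2 OOX and 9.64 to 10.51 in OOX.

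**Figure D4:**
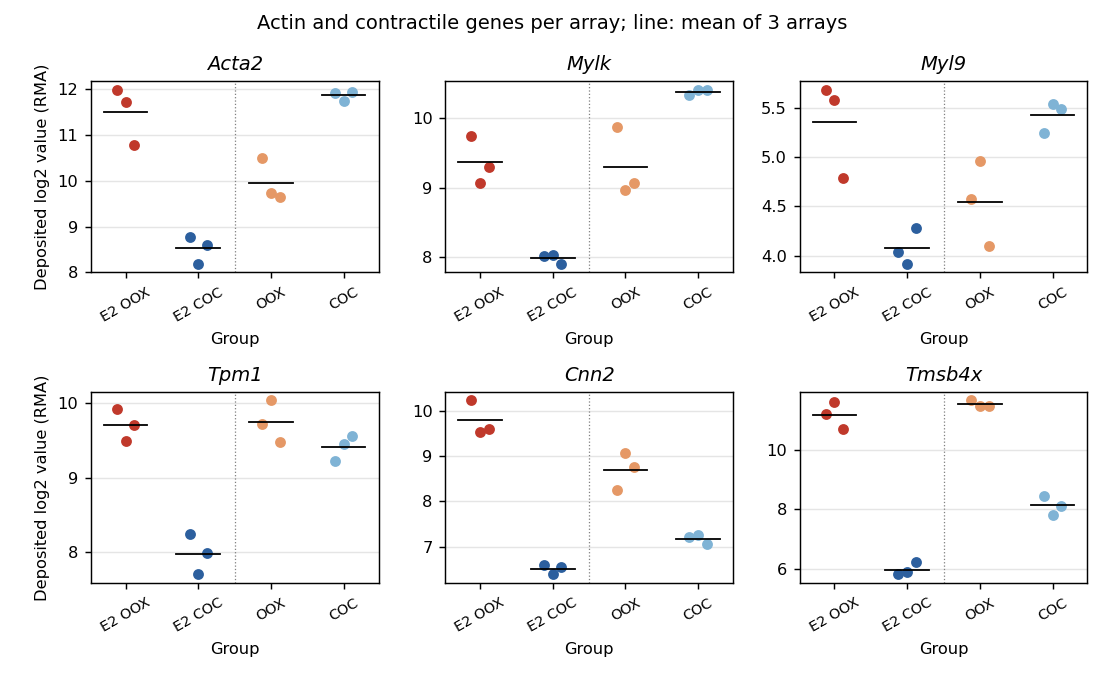
Deposited log2 level (y axis) of 6 actin and contractile genes on the 3 arrays of E2 OOX, E2 COC, OOX and COC (x axis), with lines at the mean of 3 arrays. Acta2 lies at 10.79 to 11.99 in E2 OOX and 8.19 to 8.78 in E2 COC, and at 9.64 to 10.51 in OOX and 11.74 to 11.94 in COC. The y axes do not start at 0 and differ between genes.

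The other largest positive differences were those of Gm2102 (5.18 ± 0.420), Sgpp2 (4.63 ± 0.489) and Crh (3.64 ± 0.382). Crh, the corticotropin-releasing hormone gene, had levels of 6.58, 7.36 and 6.88 in E2 OOX and 2.62, 2.95 and 3.69 in E2 COC (3.85 ± 0.270), and 2.85 to 3.41 in OOX and 2.67 to 3.18 in COC. Of these 4 groups only E2 OOX had Crh above the array medians. Probe sets were tested if above the array median on at least 3 of 18 arrays. The 3 E2 OOX arrays alone met that for Crh, so this pattern is not separate evidence. Sgpp2, a sphingosine phosphate phosphatase gene, was at 0.12 with estrogen (adjusted p = 0.849) and changed by -4.52 ± 0.346 without it. The largest negative differences were those of Rbfox3 (-3.56), Cd83 (-3.47), Ppp1r14a (-3.40) and Tle2 (-3.38). Cd83, a maturation marker of dendritic cells, had 4.19, 3.79 and 4.30 in E2 OOX and 7.12, 6.96 and 7.39 in E2 COC (-3.06 ± 0.246), and 4.57 to 5.38 in OOX and 4.33 to 4.73 in COC. Ppp1r14a, an inhibitor of myosin phosphatase, changed by -1.72 ± 0.234 with estrogen and 1.68 ± 0.234 without. The corepressor gene Tle2 rose in both, by 1.46 ± 0.271 with estrogen and 4.84 ± 0.271 without. The Rbfox3 call with estrogen (-1.21) was lost in some alternative settings, and its other tested probe set (-0.32) did not pass.

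The cholesterol synthesis and cell cycle lists had medians of the same sign in both settings. The cholesterol synthesis median was -2.32 with estrogen and -1.75 without, and 1 of 21 differences passed, that of Dhcr7 (-0.80). DNA replication had medians of -1.52 with estrogen and -1.71 without, and 1 of 29 differences passed, that of Rrm2 (1.34), though neither passed without number 5 (adjusted p = 0.116 for Dhcr7 and 0.0931 for Rrm2). Mitosis genes had medians of -1.54 with estrogen and -2.26 without, and limma called 0 of their 29 differences, with 15 at an unadjusted p under 0.05. The number of all tested genes at that unadjusted p was not counted. Without number 17, 5 of 29 mitosis and 4 of 29 DNA replication differences were called, all positive. In that setting 350 of the 12246 tested genes had a called positive difference. Slc38a3 changed less with estrogen (-0.90) than without (-2.50), a difference of 1.59 ± 0.274, as did Slc38a5 (1.67) and Ldha (0.91, adjusted p = 0.0565 without number 5). Pmepa1 changed by -1.37 with estrogen and -3.49 without, a difference of 2.12 ± 0.275, and Hsd11b2 by -1.62 with estrogen and -4.0 without (2.38 ± 0.284). Negative differences included that of Cemip, a hyaluronan-degrading enzyme gene that rose by 1.79 ± 0.359 with estrogen and 5.04 ± 0.359 without. Plat rose by 1.70 with estrogen and 3.78 without, and Vcan fell by 1.65 with estrogen and was at 0.21 without (adjusted p = 0.603). Nppc was at -0.23 with estrogen and changed by -1.91 ± 0.212 without it, a difference of 1.67 ± 0.300. With number 5 placed by its source name, the difference of Pmepa1 passed. Those of Slc38a3, Slc38a5, Ldha, Hsd11b2, Cemip, Plat, Vcan and Nppc did not.

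**Figure D5:**
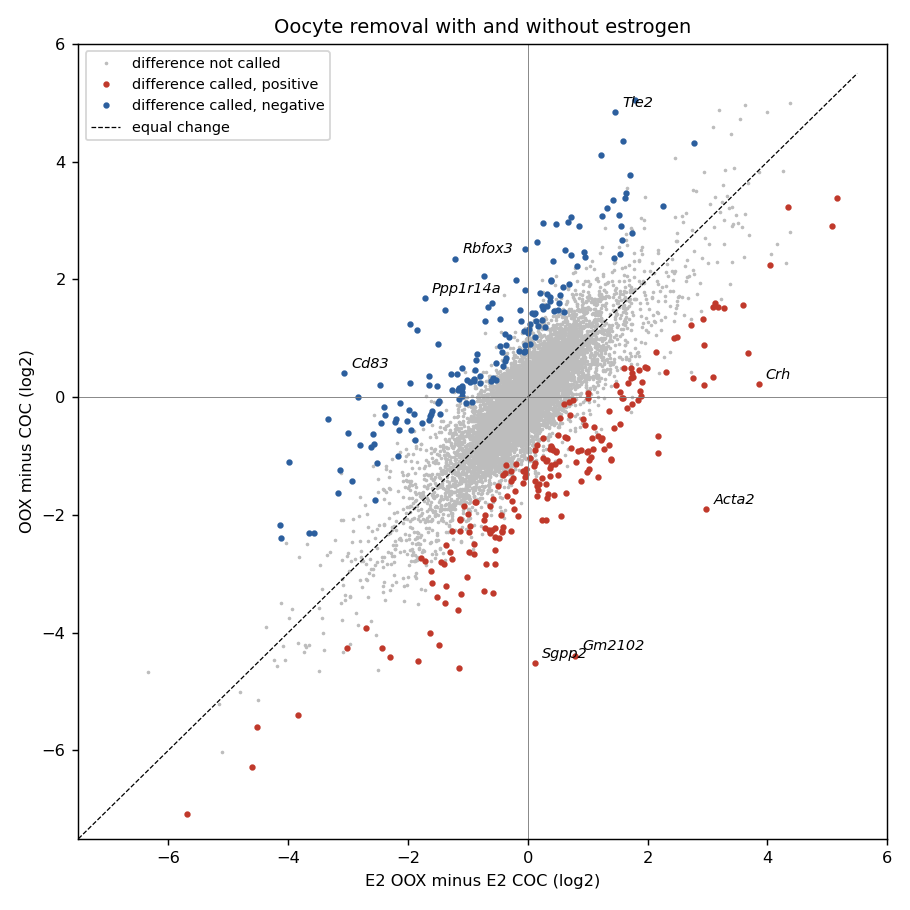
Change of each tested gene on oocyte removal with estrogen (E2 OOX minus E2 COC, x axis) and without (OOX minus COC, y axis), both on the log2 scale. Coloured points are the 196 genes with a called positive and the 159 with a called negative difference, and the dashed line marks equal changes. Acta2 and Crh lie below the line on the right, and Cd83, Ppp1r14a and Rbfox3 lie above it on the left.

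Cocultures with oocytes give the values beside which these changes can be read. The E2 OOX arrays serve in both comparisons, so opposite signs are partly built in, and the values are only set side by side. In E2 OOX+Oocytes, 2843 genes were called against E2 OOX (23.2%). Inhbb averaged 12.56 in E2 OOX+Oocytes and 6.35 in E2 OOX, next to 12.69 in E2 COC. Idi1 averaged 8.71 in E2 OOX+Oocytes and 4.89 in E2 OOX, next to 9.00 in E2 COC, and Mki67 averaged 9.83 in E2 OOX+Oocytes and 7.68 in E2 OOX, next to 10.31 in E2 COC. Among the genes that rose, Tmsb4x averaged 6.11 in E2 OOX+Oocytes and 11.15 in E2 OOX, next to 5.99 in E2 COC, and Crh 2.92 in E2 OOX+Oocytes and 6.94 in E2 OOX, next to 3.09 in E2 COC. Acta2 averaged 9.63 in E2 OOX+Oocytes and 11.50 in E2 OOX, next to 8.52 in E2 COC, and Angpt2 8.29 in E2 OOX+Oocytes and 11.39 in E2 OOX, next to 7.39 in E2 COC. Ddit4, in contrast, averaged 9.68 in E2 OOX+Oocytes and 9.55 in E2 OOX, next to 8.16 in E2 COC (added oocytes 0.13, adjusted p = 0.842).

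Without the array of conflicting labels, 18 of 21 cholesterol synthesis genes, 26 of 29 DNA replication genes and 28 of 29 mitosis genes fell, and 12 of 24 actin and contractile genes rose. In that setting 1988 of all 12246 tested genes fell and 1270 rose. All 174 genes named here that were called also passed without number 5, and 170 passed within the array series that holds numbers 5 and 11 and all E2 COC arrays. Without number 5, Inhbb changed by -6.25, Idi1 by -3.90, Mki67 by -2.57, Ccnd2 by -4.72, Acta2 by 2.73 and Tmsb4x by 5.14. Within the series, which leaves out number 17, Inhbb changed by -6.31, Idi1 by -4.53, Mki67 by -2.44, Ccnd2 by -4.24, Acta2 by 3.33 and Tmsb4x by 5.39. In all, 3303 genes were called within the series, and 2869 of them were among the 3523 in the same direction. A few named calls were lost when 1 array was left out of the fit of all groups. Without number 17 the change was -1.06 for Hspa1a (adjusted p = 0.0558) and -0.50 for Ndufv2 (adjusted p = 0.052). The fit within the series also leaves out number 17, and there both passed (limma adjusted p = 0.00498 and 0.0288). Without number 16 the change was 0.78 for Id2 (adjusted p = 0.0539). Within the series Ldhb (0.46), Mdm2 (0.60) and Tgfb1 (0.52) did not pass (adjusted p = 0.0604, 0.0583 and 0.0554). Neither Hsd17b7 nor Rbfox3 passed without number 11, 16 or 17, with changes of -0.63, -0.47 and -0.66 for Hsd17b7 and -1.16, -0.91 and -1.05 for Rbfox3.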

How the data were processed

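Cumulus cell RNA was amplified over 2 rounds and hybridised to Affymetrix mouse genome arrays, per the labels' protocols. RMA was run in Affymetrix Expression Console 1.1 according to the submitters' processing notes, and the deposited table holds its log2 values per probe set. Array medians lay between 5.51 and 5.71. Values near that level are compressed, which understates folds of dim genes, and 18 arrays limit the precision.

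Of 45101 probe sets, 34945 carry 1 gene symbol, 932 several and 9160 none in the platform annotation, and only the first kind was used. Of those, 34741 were matched to RefSeq by Entrez number. Probe sets above the array median on at least 3 of 18 arrays (21249) were fitted in limma 3.58.1 (R 4.3.3) with all 6 groups in 1 model, moderated variances and Benjamini-Hochberg adjustment over all of them, with calls at an adjusted p under 0.05. Each gene was counted by its probe set of highest mean. Groups follow the titles. The sequences are those of RefSeq, build GRCm38.p6, matched by symbol. The fit was tested on simulated data.

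The members and the 36 gene lists were chosen with earlier results of these data known. Of 799 list entries, 743 matched a symbol and 618 were tested, repeats counted. Named genes are the 12 largest rises and 12 largest falls among called genes without overlap, the 4 largest differences between the settings in each direction, up to 4 called members of each list of more than 4 tested members, and members named for their role, called or not. Alternatives changed the arrays in the fit, array series, replicate block, left-out arrays, the group of number 5, the filter, the probe set per gene, normalization, array weights and prior variance. The title numbers run in 3 sets of 6, and deviations of same-set arrays from their group means correlated at 0.166, 0.405 and -0.044 over probe sets, so the sets were not taken as pairs.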

Additional observations from a re-analysis of the deposited data

Results flagged for a closer look

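The change on oocyte removal with estrogen (E2 OOX minus E2 COC) was tested against the change without it (OOX minus COC) in limma. Of the 210 tested genes named above, 46 had a called difference. Among all 12246 tested genes the count was 355 (2.9%). The named genes include the 4 largest called differences in each direction, so their share is partly built in by the choice. Each value below is the first change minus the second, on the log2 scale. A positive value means a larger rise, a smaller fall or an opposite direction with estrogen.

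Positive differences of 2 or more were found for Gm2102 (5.18), Acta2 (4.88), Sgpp2 (4.63), Crh (3.64), Mylk (2.45), Ddit4 (2.43), Hsd11b2 (2.38), Ptch1 (2.24), Fgd5 (2.17), Myl9 (2.15) and Pmepa1 (2.12). Smaller positive differences were those of Id4 (1.97), Col4a1 (1.86), Ntn4 (1.80), Tmsb4x (1.77), Cnn2 (1.77), Slc38a5 (1.67), Nppc (1.67), Fos (1.62), Slc38a3 (1.59) and Egr1 (1.55). They also included Tagln (1.53), Bach2 (1.45), Wt1 (1.44), Dnajb13 (1.40), Tpm1 (1.40), Gli1 (1.34), Rrm2 (1.34), Bmp2 (1.11), Tac1 (1.07) and Ldha (0.91).

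Negative differences were found for Rbfox3 (-3.56), Cd83 (-3.47), Ppp1r14a (-3.40), Tle2 (-3.38), Cemip (-3.25), Plat (-2.08), Serpina3a (-1.96), Vcan (-1.86), Lrp8 (-1.77), Scd1 (-1.62), Fn1 (-1.57), Gja4 (-1.41), Ltbp1 (-1.16), Id1 (-1.0) and Dhcr7 (-0.80).

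All 3 OOX arrays lie outside the array series that holds number 5, number 11 and all E2 COC arrays, so no value of these differences within that series exists. The 46 were selected for passing with all arrays, so their count in another setting can only be 46 or fewer. Without number 5, 32 of the 46 differences passed, and without number 17 44 did. With array series as a term 33 passed. With number 5 placed in the group of its source name 11 passed, those of Acta2, Cd83, Egr1, Fgd5, Gja4, Gli1, Mylk, Pmepa1, Ppp1r14a, Ptch1 and Rbfox3. The difference of Crh had an adjusted p of 0.316 in that setting, and those of Sgpp2 and Tle2 had 0.301 and 0.533.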

How the results depend on the processing

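The count of 3523 genes called with estrogen stayed within 1.5 times in all 19 alternatives that gave one, from 2710 without the E2 COC array 4 to 4378 with array weights. It was 2847 with number 5 placed by its source name, and leaving out 1 array at a time gave 2710 to 3258. With the replicate block it was 3498, or 3666 in a fit of the 6 arrays alone, an alternative chosen after seeing the data; both stand beside 3523 without the block, and the numbers share only a position in the titles. The block gave 344 called differences between the settings, 4567 genes without estrogen and 2826 with added oocytes. Leaving out 1 array gave 3829 to 4684 genes called without estrogen, and 2059 to 2618 with added oocytes. The count without estrogen was 2899 with array series as a term, and the cause was not tested. The 355 differences between the settings were the least stable count, with 240 to 615 when 1 array was left out (240 without number 5, 615 without number 17), 1055 with array weights and 73 with number 5 placed by its source name, and the cause was not tested. Of 174 named called genes, 158 passed in each of 18 alternatives, 16 lost the call in at least 1, and none changed sign. Bbc3, Cemip, Col6a3, Hes1, Hsd11b2, Slc38a3, Tgfb2 and Tle2 lost it only with number 5 placed by its source name. With 3 arrays a group, small changes near the array median cannot be resolved, and a p above the threshold does not show that a gene was unchanged.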
